A study of Haliotis discus hannai with 24 samples.

Results

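The eyestalk and the cephalic tentacle are the paired sensory organs of the abalone head. Their messenger RNA was compared in 16 of the 24 libraries made from Haliotis discus hannai, a marine snail. These were all libraries labelled as eyestalk (8) or as cephalic tentacle (8), and the other 8, from the epipodial tentacle along the foot, enter no organ comparison here. They give reference levels, a measure of spread and 1 alternative fit. The 16 fall into 4 groups of 4 libraries, numbered 1 to 4: right eyestalk, left eyestalk, right cephalic tentacle and left cephalic tentacle. The stated question of the study is how left and right organs differ, and the organs are compared here with the sides weighted equally. Every library was labelled Aquaculture in the genotype field and carried the same batch label, and the treatment field of each group named the excision of the organ sampled, so no untreated or intact control stood apart from these groups. The labels do not say how many animals stand behind a library, nor their age or sex. The p-values therefore measure the spread between these libraries, which may be technical.

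In gastropods that have an eyestalk, it carries the eye, with its photoreceptor cells and pigment cells, on a muscular stalk. The cephalic tentacle is a mobile head appendage known for touch and chemical sense, covered by an epithelium with ciliated and sensory cells. Both are supplied by nerves of the head ganglia. The files pair 0 gene identifiers with names or products, so the labelled organs could not be checked against markers of these cell types, and few are shown, 2 in each direction chosen by rule and 1 more, named below. In bulk RNA, fewer cells of a type and less RNA per cell cannot be told apart.

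Eyestalk libraries held 1692939 to 4479096 counts and 3682 to 11090 genes with a count. Cephalic libraries held 473072 to 1939936 counts and 3919 to 11197 genes with a count. Fewer than 6000 genes were detected in 3 eyestalk libraries (right replicate 1 and left replicates 2 and 3) and in 4 cephalic libraries (right replicates 3 and 4 and left replicates 1 and 2). These 7 are called the low-detection libraries below. One gene, HDSC05049CG00020, took 70.8% of all counts in right eyestalk replicate 2, and it is named here because its values were seen to be so high. All 16 libraries were kept, and the main counts of genes called between the organs are also given without the doubted ones. The counts by level band, library pair and overlap were made with all 16, and those by side also without each library in turn.

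The largest source of spread among the 16 libraries was not the organ. The first principal component of log2 CPM (CPM, the counts of a gene per 1000000 counts, scaled with TMM composition factors) held 30.9% of the variance. On it the low-detection libraries lay between 76.9 and 138.4 and the other 9 between -122.2 and 9.1, while the ranges of the organs overlapped widely. The second component held 12.2%. On it the 8 eyestalk libraries lay from -91.7 to -9.4 and the 8 cephalic libraries from -10.6 to 167.0, so the organs were parted but for a small overlap. Its ends were low-detection libraries, right eyestalk replicate 1 and, at 167.0, left cephalic tentacle replicate 2, which held 494495 counts. Right cephalic tentacle replicate 3, with the smallest total, lay at 107.6. Among the other 9 libraries the eyestalk lay from -43.0 to -9.4 and the cephalic tentacle from -10.6 to 35.2. Gene by gene, the median share of the sum of squares of log2 CPM over the 6479 genes tested was 3.33% for organ, 1.57% for side and 21.4% for low detection, each with 1 degree of freedom. It was 17.9% for replicate number, with 3. A term with more degrees of freedom takes a larger share by chance, so 17.9% and 3.33% cannot be compared directly. An even split would give a mean of 6.67% per degree of freedom. Such shares are skewed, so a median can lie below that mean by chance alone. The medians for organ, side and replicate number lay below their even shares, which therefore does not show less than a chance share. The median for low detection lay above.

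**Figure D1:**
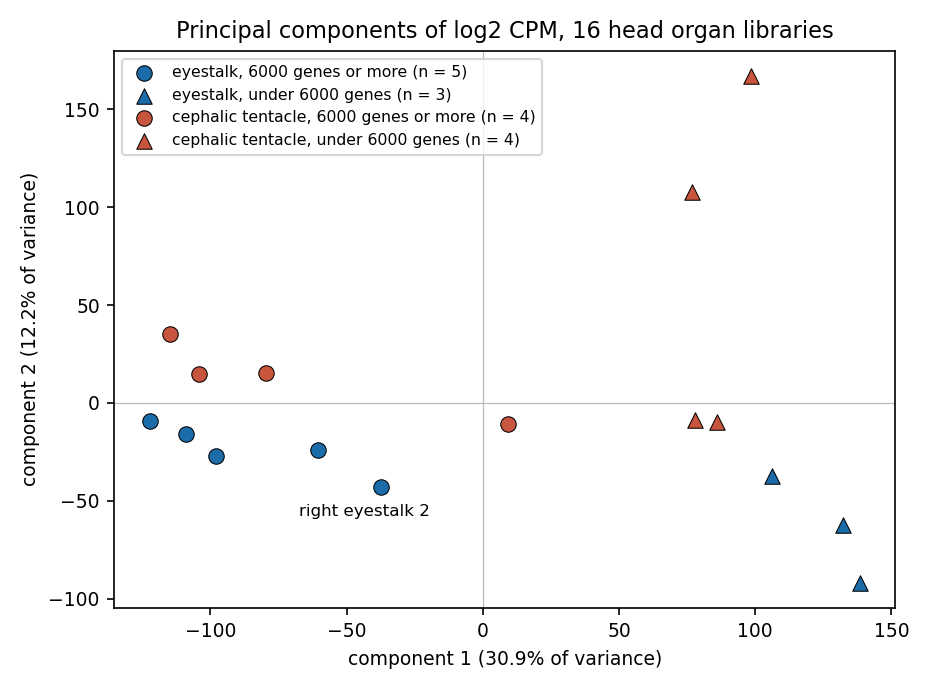
Scores of the 16 libraries on the first (x) and second (y) principal components of log2 CPM, with the percent of variance of each component in its axis label. Blue points are eyestalk and red points cephalic tentacle, and triangles are the low-detection libraries. Triangles lie at 76.9 or more on the first component, circles at 9.1 or less, and along the second the organs are parted but for a small overlap.

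The organs did not differ detectably in how many genes they expressed. When every library was brought to the smallest total of 473072 counts by the hypergeometric formula, the eyestalk had 6185 ± 2400 genes detected and the cephalic tentacle 6161 ± 2070 (SD, n = 8 each). The difference of 24.2 genes had an exact two-sided permutation p of 0.98 (adjusted p = 0.98 over 2 such tests). Low-detection libraries reached 3406 to 4829 genes at this depth and the other 9 reached 5174 to 9103, so these ranges did not overlap at equal depth. The class was set by the genes detected in these same libraries, so a split was in part built in. The 10 most abundant genes held 38.7% ± 21.3 of eyestalk and 25.4% ± 5.57 of cephalic counts (SD, n = 8 each, exact permutation p = 0.103, adjusted p = 0.206). Without right eyestalk replicate 2 the difference fell from 13.2 to 7.21 percentage points (exact permutation p = 0.206). Of 15981 genes with a count in these libraries, 12446 were seen in both organs, 1898 in the eyestalk alone and 1637 in the cephalic tentacle alone, with 18018235 and 10527012 counts behind the organs.

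A small set of genes was called between the organs, with large fitted factors. Of 6479 genes that passed the filter on low counts, 68 were called higher in the eyestalk (1.05% of genes tested) and 109 lower (1.68%). The call was an adjusted p under 0.05 in edgeR's quasi-likelihood test of the organ difference, with both sides weighted equally. On simulated counts the false calls of this test were a larger share than 0.05, so the called set may hold more of them than its threshold states. The simulated libraries were independent and had no low-detection class, so the share in these data may differ. Left and right libraries of a number were taken as separate, although they may come from the same animal. With their counts summed, 37 genes were called higher and 91 lower. With the replicate number added to that model as a block, 62 and 126 were called. The 177 called genes (2.73%) had a median absolute log2 fold change of 4.14 and a smallest one of 1.69, against a median of 0.57 over all genes tested. An 8-fold difference or more was fitted for 57 of the 68 higher and 76 of the 109 lower genes, and for 3.94% of all genes tested. The spread between libraries was high, so mainly large differences could pass the threshold. These sizes therefore follow in part from the calling rule. The median log2 fold change, eyestalk over cephalic tentacle, was 5.12 for the higher genes and -3.79 for the lower genes. Of the higher genes, 16 had at most 3 counts over the 8 cephalic libraries. With those at a floor of 3 counts over the group the median was 4.73, and for the lower genes, 9 of which had at most 3 counts in the eyestalk, it stayed at -3.79.

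Most genes could be placed only within wide limits. The 95% interval of the organ difference excluded a 4-fold change in either direction for 1386 genes, 21.4% of those tested, and an 8-fold change for 4045 genes (62.4%). A gene outside the called set is therefore not shown to be equal in the organs. The spread between libraries of a group behind these limits was high, with a biological coefficient of variation of 1.22 for eyestalk and 1.16 for cephalic libraries. For the epipodial libraries it was 0.636. Over all genes tested the median log2 fold change was 0.05 under TMM scaling, 0.19 under RLE scaling and -0.11 when totals alone were used. Genes higher in the eyestalk made up 38.4% of calls under TMM, 43.8% under RLE (70 higher, 90 lower) and 29.4% under totals alone (30 higher, 72 lower).

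The number of genes called, and which genes they were, changed with the libraries kept. The filter was run again on each set of libraries, so the number of genes tested changed from the 6479 of the main fit. Without the 7 low-detection libraries 24 of 7675 genes were called higher and 65 lower. Of these, 21 and 45 were among those above. With left and right counts of a number summed, 37 of 6198 were called higher and 91 lower, with 30 and 70 shared. Adding the replicate block to that fit gave 62 and 126, with 43 and 82 shared. Without right eyestalk replicate 2 the counts were 61 and 98 of 7156, with 55 and 85 shared. Without all 8 doubted libraries they were 43 and 74 of 7534, with 31 and 48 shared. Of the 177 genes, 175 could still be tested without all 8, and 3 of these changed sign. The 7 low-detection libraries alone gave 5 genes higher and 2 lower among 2871 tested. A term for low detection in the model gave 78 higher and 153 lower, with 64 and 107 shared.

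Calls were found at every level of counts and were more frequent where more counts stood behind a gene. Of 2919 genes with a mean under 10 CPM over the 16 libraries, 28 were called (0.959%), and each of them differed by at least 4.09 on the log2 scale. Of 2811 genes from 10 to 100 CPM, 88 were called (3.13%). Of 640 genes from 100 to 1000 CPM, 49 were called (7.66%), 12 higher and 37 lower. Of 109 genes at 1000 CPM or more, 12 were called (11.0%), 5 higher and 7 lower. The median standard error of the log2 fold change fell from 1.18 in the lowest of these bands to 0.52 in the highest, and the bands rank genes by counts, not by level per length.

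**Figure D2:**
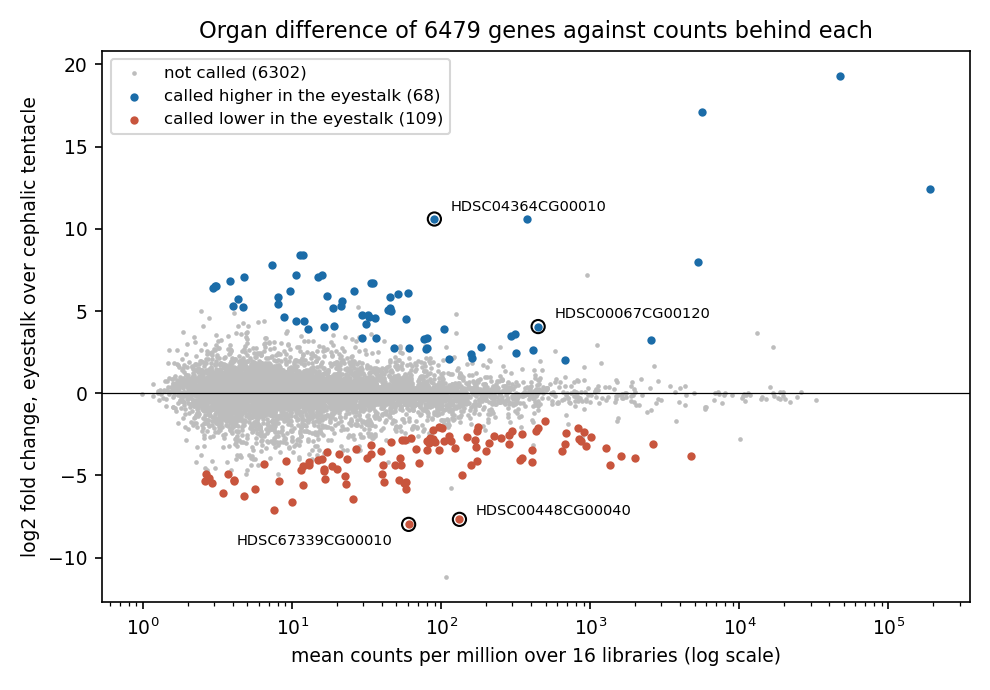
Log2 fold change of each tested gene, eyestalk over cephalic tentacle (y), against its mean CPM over the 16 libraries (x, log scale). Blue points are the 68 genes called higher in the eyestalk, red points the 109 called lower, grey points the rest, and the 4 genes described by identifier are circled.

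Per kilobase of coding length, the genes lower in the eyestalk were the better expressed of the called sets. Their median level was 142 CPM per kilobase in the cephalic tentacle and 12.8 in the eyestalk. The higher genes had a median eyestalk level of 91.3 CPM per kilobase and a median cephalic level of 1.76. Over all genes tested the median was 16 for the eyestalk and 15.4 for the cephalic tentacle. The median coding length was 720 bases for the higher genes, 849 for the lower genes and 768 over all genes tested.

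The called genes took very different shares of the library in the organs, and the share of the higher genes was uneven within the eyestalk. Together the 68 higher genes held 2.75% to 77.6% of a library's counts in the eyestalk (median 9.81%) and 0.112% to 0.222% in the cephalic tentacle. The highest shares were in right eyestalk replicates 2 (77.6%) and 1 (44.2%) and in left replicates 2 (23.7%) and 3 (15%), of which only right replicate 2 was not of low detection. The other 4 eyestalk libraries lay between 2.75% and 4.61%. With HDSC05049CG00020 taken out of the genes and of the totals, the eyestalk share was still 2.46% to 26.5%, above the 0.11% to 0.219% of every cephalic library. The remaining share may also rest on few genes. Another gene, among those set apart by detection below, averaged 50500 CPM of the library total in the eyestalk. The 109 lower genes held 0.0833% to 1.42% of an eyestalk library and 2.16% to 14.1% of a cephalic one, with left replicate 4 the highest. The eyestalk minimum was in right replicate 2, where HDSC05049CG00020 took 70.8% of the counts. Without that library the eyestalk minimum was 0.311%. These shares describe genes called on the same libraries and carry no test.

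HDSC05049CG00020 is described here by its share of each library. It held 70.8%, 24.1%, 9.38% and 6.92% of the counts in right eyestalk replicates 2 and 1 and left eyestalk replicates 2 and 3, and 0.0906% to 1.08% in the other 4 eyestalk libraries. In the cephalic libraries it held at most 0.0332%, with 848 counts over all 8 against 3946374 in the eyestalk. The ranges did not overlap. Since the gene was chosen for its level in these libraries, no test is given for it.

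Detection alone set apart few genes. A count in at least 6 of 8 eyestalk libraries with at most 3 counts over the 8 cephalic libraries was found for 30 genes, of which 8 had 0 counts in the cephalic tentacle and 5 had a count in all 8 eyestalk libraries. The reverse pattern was found for 15 genes, of which 2 had 0 counts in the eyestalk and 0 had a count in all 8 cephalic libraries. Only 15 of the 30 and 7 of the 15 passed the filter on low counts, with 14 and 7 called, and genes chosen in this way had to differ. Their median level was low, at 5.29 and 6.34 CPM relative to the library total, although 1 eyestalk gene averaged 50500. That gene was not HDSC05049CG00020, which had 848 counts in the cephalic libraries. In the epipodial tentacle 14 of the 30 and 10 of the 15 had a count in at least 6 of 8 libraries, while 5 and 1 had at most 3 counts there. Without the low-detection libraries, with a count required in 4 of 5 eyestalk or 3 of 4 cephalic libraries, 209 and 295 genes met the rule. That count changes the libraries, the share of them required and the number under the limit of 3 counts together, so the parts of these changes cannot be told apart.

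The genes described by identifier were those with the smallest p in each direction among called genes whose 8 and 8 libraries did not overlap. Of all genes tested, 21 lay wholly above (0.324%) and 36 wholly below (0.556%) the cephalic range in the eyestalk, and 20 and 34 of these were called.

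HDSC04364CG00010 was on in every eyestalk and off in nearly every cephalic library. Its level was 49.2 CPM in the lowest, 183 in the median and 291 in the highest eyestalk library. It was at 0 in 7 cephalic libraries and had 1 count in left cephalic tentacle replicate 4 (0.448 CPM). The lowest eyestalk values were in right replicates 1 and 2, at 69.7 and 49.2 CPM, and the other 6 were at 125 CPM or more. With 3382 counts against 1, the pooled ratio was 2675 (95% interval from counting error alone, 480 to 105700), and the gene was called with an edgeR adjusted p of 1.29e-08. Without left cephalic tentacle replicate 4 the cephalic tentacle had 0 counts. It was not confined to the eyestalk, since the epipodial tentacle had 18.7 to 64.9 CPM in its 8 libraries when all 24 were scaled together. On that scale the eyestalk ranged from 51.6 to 319 CPM.

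HDSC00067CG00120 was well expressed in both organs and stepped between them. Its level was 341 CPM in the lowest, 788 in the median and 1755 in the highest eyestalk library, and 13.5, 46.1 and 102 CPM in the cephalic tentacle. The lowest eyestalk library, right replicate 1, was thus above the highest cephalic one, left replicate 1. The means were 842 CPM ± 473 and 50.5 CPM ± 31.8 (SD, n = 8 each), and the log2 fold change was 4.05 (SE 0.57, 95% interval 2.89 to 5.22, edgeR adjusted p = 3.91e-05). Scaled over 24 libraries, the epipodial tentacle had 276 to 1120 CPM, which overlapped the 370 to 1950 CPM of the eyestalk and lay above the 15.6 to 116 CPM of the cephalic tentacle. In the 7 low-detection libraries alone the log2 fold change was 3.92 with an edgeR adjusted p of 0.0542.

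HDSC00448CG00040 was the gene with the smallest p among those lower in the eyestalk. It was at 0 in 4 eyestalk libraries and at 1.37 to 8.49 CPM in the other 4, with the highest value in right replicate 4. In the cephalic tentacle it was at 36.1 CPM in the lowest, 153 in the median and 560 in the highest library. The means were 1.70 CPM ± 2.88 and 263 CPM ± 207 (SD, n = 8 each), and the log2 fold change was -7.67 (SE 0.88, 95% interval -9.46 to -5.88, edgeR adjusted p = 6.77e-07). Without right eyestalk replicate 4 it was -8.29. Without left eyestalk replicate 4, the only left eyestalk library with a count, the fitted value was -9.07, which depends on the prior count. It was -6.91 without the low-detection libraries, and the 3 low-detection eyestalk libraries had 0 counts of this gene. In the epipodial tentacle, scaled over 24 libraries, it lay at 6.82 to 32.1 CPM, below the 41.7 CPM of the lowest cephalic library.

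HDSC67339CG00010 had 7 counts over the 8 eyestalk libraries, 0 in 5 of them and 2 to 3 in each of the others. In the cephalic tentacle it was at 10.2 CPM in the lowest, 34.3 in the median and 665.5 in the highest library. The highest, left cephalic tentacle replicate 4, stood far above the next, at 83.2 CPM. The log2 fold change was -7.97 (SE 1.04, 95% interval -10.08 to -5.87, edgeR adjusted p = 8.28e-06). Without left cephalic tentacle replicate 4 it was -6.46. Without left eyestalk replicate 1, the only left eyestalk library with a count, the fitted value was -8.93, which depends on the prior count. The 3 low-detection eyestalk libraries had 0 counts of this gene, and in the 7 low-detection libraries alone the edgeR adjusted p was 0.204. The epipodial tentacle had 0.472 to 15.9 CPM on the scale of 24 libraries, on which the cephalic minimum was 11.6 CPM.

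**Figure D3:**
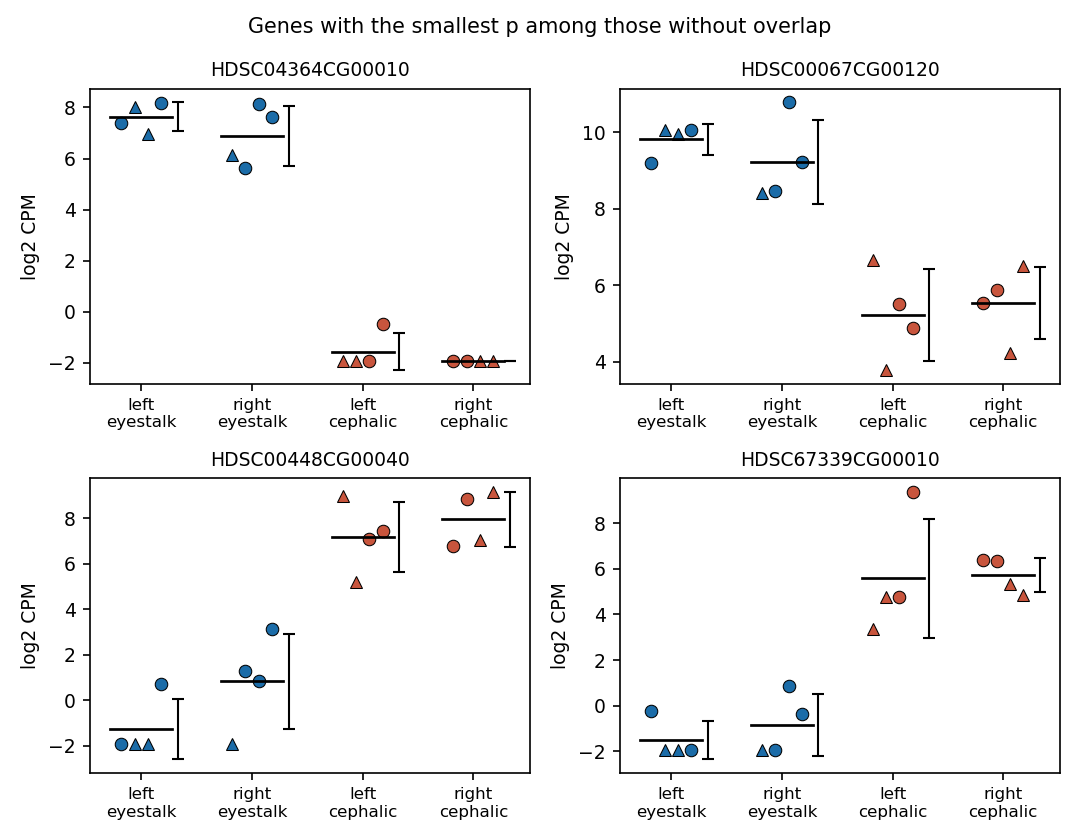
Log2 CPM of the 4 genes in each library (y), by organ and side (x), with 4 libraries a group. Triangles are low-detection libraries, horizontal lines the group means and vertical bars ± 1 SD, and the lowest points of 3 panels are libraries with 0 counts, drawn with a prior count of 0.5. Eyestalk points (blue) lie wholly above the cephalic points (red) in the upper panels and wholly below in the lower ones.

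Separation was seldom complete but mostly held library by library. When each eyestalk library was set against the cephalic library of its side and number, 97 of the 177 called genes pointed the same way in 8 of 8 pairs and 152 did so in 7 or 8, against 2.53% and 8.54% of all genes tested. Among the higher genes 31 of 68 held in 8 of 8 pairs, and among the lower genes 66 of 109. Only 5 called genes held in 5 pairs or fewer. Over the 64 possible pairs of an eyestalk with a cephalic library, the median called gene pointed its way in 89.8% of pairs for the higher and 96.9% for the lower set. The genes were called on these libraries, so these shares describe them and do not support the calls.

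Each library was also read against calls made without it. Genes were called again in the other 15, and each was then checked for whether the library left out lay nearer to the mean of its own organ. Between 143 and 181 genes were called in these 16 fits, among 6859 to 7163 tested. The library left out lay on its own organ's side for 69.9% to 88.8% of them, and for 41.7% to 54.7% of all genes tested. Every library was thus placed with its labelled organ by most called genes. The library of the same organ and number from the other side stayed in each fit and may come from the same animal, so the reading may not be independent of the calls.

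The low-detection and the other libraries were also read apart, with no test of the difference. For the genes lower in the eyestalk, the 4 low-detection cephalic libraries were on their own side for 62.2% to 73.4% of genes and the other 4 cephalic libraries for 86.5% to 92.9%. Of the 4 readings by set and organ, only this one had ranges that lay apart. For the genes higher in the eyestalk, the same 4 cephalic libraries reached 80.7% to 96.1% and the other 4 reached 72.6% to 90.7%. The 3 low-detection eyestalk libraries reached 66.7% to 71.0% for the higher genes and the other 5 reached 69.9% to 81.7%. For the lower genes they reached 75.0% to 84.7%, within the 71.4% to 96.2% of the other 5. Right eyestalk replicate 2, the dominated library, was on its own side for 70.5% of the higher and 91.8% of the lower genes. Right eyestalk replicate 3, with 8418 genes detected, was at 69.9% and 71.4%. The part of low detection in these shares was not tested.

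**Figure D4:**
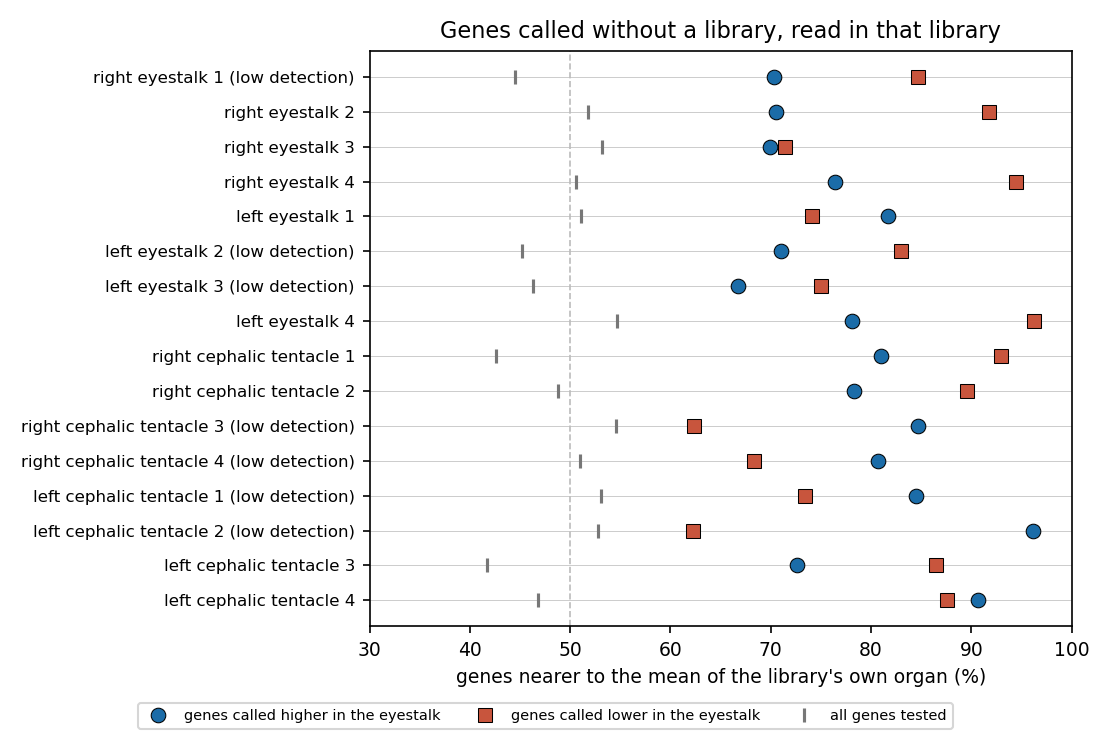
For each of the 16 libraries (y), the percentage of genes that lay nearer to the mean of the library's own organ when the calls were made without it (x, percent, axis from 30 to 100). Blue circles are genes called higher in the eyestalk, red squares genes called lower and grey ticks all genes tested. Ticks lie from 41.7% to 54.7%, and the lowest square or circle is at 62.2%.

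The organ difference was also read on each side. In the model of 16 libraries 9 genes were called between the right organs (0.139%) and 22 between the left organs (0.34%), far fewer than with both sides together. With the replicate number as a block, which pairs libraries across the organs, these counts were 50 and 54, while the count over both sides moved from 177 to 198. The right count also hung on single libraries. It was 2 without right eyestalk replicate 1 or right cephalic tentacle replicate 1, 3 without right cephalic tentacle replicate 3 and 4 without right eyestalk replicate 2. It rose to 26 without right eyestalk replicate 3 or left cephalic tentacle replicate 2 and to 17 to 22 without left eyestalk replicate 1 or 4 or left cephalic tentacle replicate 1, 3 or 4. The left count was 2 without left cephalic tentacle replicate 4, 10 without left eyestalk replicate 2 and 11 without left eyestalk replicate 3.

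Among genes that passed the filter on low counts, none was called for a difference of the organ effect between the sides. The count was 0 of 6479 genes in edgeR and 0 in DESeq2, and with no filter edgeR called 2. In edgeR with the filter, 58 genes (0.895%) were under 0.05 before adjustment. The median absolute difference between the left and the right log2 fold change was 0.84 over all genes tested. The 177 called genes all had the same sign on both sides, as did 60.1% of all genes tested, and the call on both sides favours such genes. For HDSC00067CG00120 the log2 fold change was 3.83 on the right and 4.28 on the left, and for HDSC00448CG00040 it was -6.54 and -8.79. HDSC04364CG00010 had 0 counts in the right cephalic libraries and HDSC67339CG00010 had 2 in the left eyestalk libraries, so no fold by side is given for them. The 4 genes passed the test within each side in the model of 16 libraries. They were chosen for a small p on these libraries, and where a side gave only 2 or 3 calls without 1 library, as above, not all 4 can have passed. Their unadjusted edgeR p of the difference between sides was 0.107 or more (adjusted p = 1 for each).

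Calls made on 1 side were then looked up in the libraries of the other, which share no library but may share animals. The 8 right libraries alone gave 4 calls among 3981 genes (0.1%), and the 8 left libraries alone gave 23 among 4820 (0.477%). With no filter in the libraries read, 4 of 4 and 23 of 23 genes differed in the same direction on the other side, against 59.1% and 60.0% of genes tested. Of the 100 genes with the smallest p on the right, 100 had the same direction on the left, and of the 100 smallest on the left, 99 had it on the right.

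**Figure D5:**
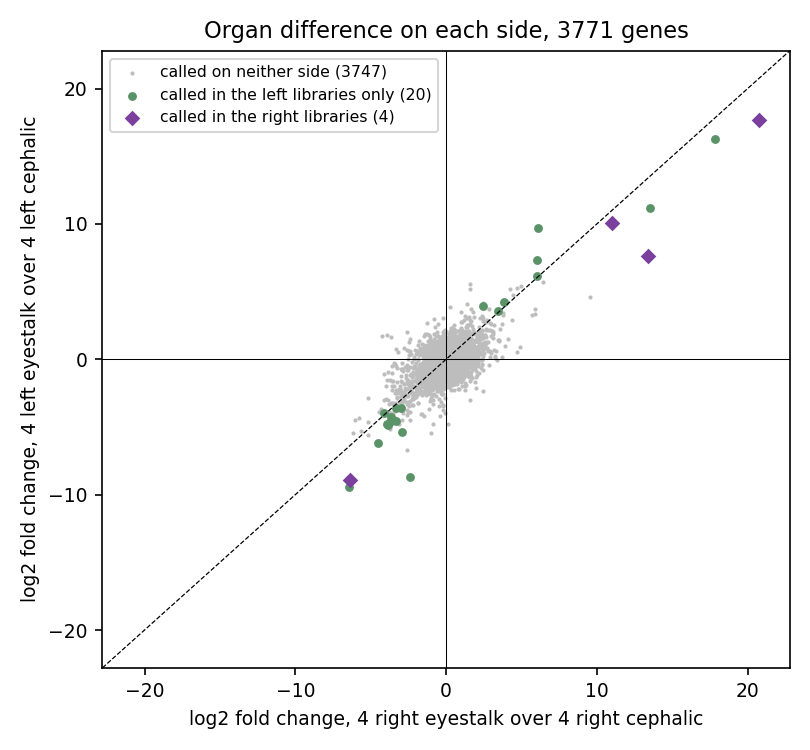
Log2 fold change of eyestalk over cephalic tentacle in the 8 left libraries (y) against that in the 8 right libraries (x) for genes tested on both sides, with the line of equal values dashed. Purple diamonds were called in the right libraries, green points in the left libraries only. All diamonds and green points lie in the quadrants where both sides have the same sign.

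The same was done across detection, a reading chosen after the data were seen. The low-detection and the other libraries share no library, but replicate numbers recur in both, so they may share animals. The 9 libraries with 6000 genes or more, compared by organ alone, gave 169 calls among 5956 genes (2.84%), 43 higher and 126 lower in the eyestalk. With side in the model the same 9 libraries gave the 89 calls above (24 higher, 65 lower), and the larger list was the one read. In the 7 low-detection libraries, read with no filter, 155 of these differed in the same direction, 36 of the higher and 119 of the lower genes, and 2 had no count. This is 91.7%, against 53.8% of the genes tested. The 3 low-detection eyestalk libraries did not overlap the 4 cephalic ones in the called direction for 74 of the 169 genes, against 4.85% of the genes tested. In reverse, the low-detection libraries gave 7 calls (0.244%), and all 7 had the same direction in the other 9 libraries, against 60.4% of the genes tested.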

How the data were processed

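Per the labels' protocols, TRIzol was used to extract RNA and the VAHTS Universal V6 kit to build polyadenylated RNA libraries. The tools fastp, HISAT2 and HTSeq are listed in the submitters' processing notes. Their versions, the build, the annotation and the use of strand are not given in the sources here, so values of near-identical copies and of overlapping genes are uncertain. The deposited tables hold whole-number read counts per gene, not normalized by the authors, and FPKM values that equal those counts over coding length and library total (largest relative deviation 1.1e-08). Of the recovered lengths, 99.4% were divisible by 3. Every column belonged to a labelled library. Of 19700 genes listed, 17233 had a count.

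Groups came from the tissue label and replicate numbers from the title. The test on the counts of the 16 libraries used edgeR (version 4.0.16, under R 4.3.3): filterByExpr over 4 groups, TMM factors, robust quasi-likelihood fit of 4 group means, Benjamini-Hochberg adjustment, threshold 0.05. The epipodial libraries were kept out of the fit because their spread was lower. CPM values are relative to the counts of tested genes times the TMM factor, and log2 CPM carries a prior count of 0.5. Single values per library were compared by exact permutation (scipy 1.17.1), with the 16 libraries taken as separate. Alternatives were RLE factors, library totals, other filters, DESeq2 1.42.0, limma 3.58.1, other sets of libraries, sides summed and a replicate block. Counting intervals are exact at the 95% level and, like floors, cover counting error only. The labels name no molecular identifiers, so reads are not independent molecules. Precision is lowest in the cephalic libraries of the smallest totals.

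Deviations from the group means, averaged over sides, correlated across genes between eyestalk and cephalic libraries of a number by 0.409, 0.335, 0.204 and 0.203 in numbers 1 to 4. All are above the bound of 0.1, so the numbers may pair the libraries, by the data and not by the labels. The main fit has no replicate block and takes the left and right libraries of a number as separate. With the block 65 genes were called higher and 133 lower, and with sides summed 37 and 91. With sides summed and the block, 62 and 126 were called. On simulated counts with known changes the main fit recovered most of the largest changes and few of the smallest. Its false calls were a larger share than the threshold stands for. The genes described by identifier were the 2 per direction with the smallest p among called genes without overlap. The marker lists could not be matched to identifiers. The comparison, its lists and its rules were chosen with earlier results of these data known.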

Additional observations from a re-analysis of the deposited data

Results flagged for a closer look

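In groups of 4 libraries, 4 values stood apart from the other 3 by more than Dixon's critical value allows, among 32 groups examined, where chance marks about 1 in 20. Left eyestalk replicate 1 was low for HDSC00067CG00120, at a log2 CPM of 9.20, still above every cephalic library. In the remaining groups the other 3 libraries had 0 counts and so shared 1 value. Any count in such a group is marked whatever its size, so the chance rate does not hold for these marks. The values that stood apart there were HDSC04364CG00010 in left cephalic tentacle replicate 4 (log2 CPM of -0.493, from 1 count), HDSC00448CG00040 in left eyestalk replicate 4 (0.705) and HDSC67339CG00010 in left eyestalk replicate 1 (-0.242).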

How the results depend on the processing

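The number of genes past the threshold depended on the setting. Library totals alone gave 102 calls (30 higher, 72 lower), limma on log2(FPKM + 1) gave 98 (32, 66) and limma on log2(FPKM + 0.1) gave 72 (25, 47). DESeq2 gave 272 (110 higher), limma voom with library weights 388 (148, 240), and the fit of all 24 libraries 321 (222 lower), which included all 177. With no filter 106 genes were called higher, and with left and right counts summed, 37, or 62 with the replicate block as well. Without the low-detection libraries the calls numbered 89 (24, 65), without the 8 doubted libraries 117 (43 higher), and in the low-detection libraries alone 7 (5, 2). Leaving out 1 library gave 143 to 181 calls, 51 to 73 higher and 79 to 127 lower. The number of genes tested also changed with the filter and the libraries, and the cause of these differences was not tested.

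Within a side, the right and left counts were 14 with RLE factors (right), 3 and 7 with library totals, 54 and 49 with no filter, 66 and 59 with 24 libraries and 110 and 110 with DESeq2. With the replicate block they were 50 and 54. In the fit of the 16 libraries the block moved no other count by over 1.5 times. It ended the call of none of the 4 genes described by identifier. With left and right counts summed, the block moved the number of genes called higher from 37 to 62. Without 1 library the right and left counts were 2 to 26 and 2 to 29. The difference between sides gave 2 calls with no filter and 0 without any 1 library.

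The difference in genes detected at a common depth was -217.4 without the low-detection libraries (p = 0.825), -22.9 at the smaller common depth (p = 0.981), and -388 to 444.4 without 1 library, by exact permutation. The difference in the share of the 10 most abundant genes was 7.21 (without right eyestalk replicate 2) to 16 percentage points without 1 library. Genes restricted by detection numbered 5 and 0 with a count required in all 8 libraries, 8 and 2 with 0 counts allowed in the other organ, and 209 and 295 without the low-detection libraries. HDSC04364CG00010 and HDSC00448CG00040 passed the threshold in 32 of 32 alternatives, and HDSC00067CG00120 and HDSC67339CG00010 each missed it in 1, the low-detection libraries alone. Cephalic totals down to 473072 limit what can be detected there.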

Other observations

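Identifiers share a stem before the letters CG, and the labels do not say what it stands for. The 177 called genes fell on 168 stems, with 9 stems holding 2 called genes each. The 6479 genes tested fell on 4041 stems, and 3724 of them shared a stem with another tested gene. Sharing depends on the size of a set, so no clustering of called genes is read from these counts. When limma weighed libraries by their fit to the groups, the 3 low-detection eyestalk libraries received weights of 0.303 to 0.432 and the other 5 eyestalk libraries 1.02 to 3.71, while the 4 low-detection cephalic libraries received 0.428 to 1.24 and the other 4 received 0.782 to 2.68.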
